A study of Penicillium oxalicum with 9 samples.

Results

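The genes described here are the molecular chaperones and the enzymes of antioxidant defence of the filamentous fungus Penicillium oxalicum. They were found by words in the descriptions deposited beside the values, such as heat shock, chaperonin, DnaJ, prefoldin, catalase or thioredoxin, with protein disulfide isomerases, calnexin and heat shock transcription factors left out. The words matched 89 genes and 2 were left out, which gave 87 genes of the 9907 in the table, 61 of them chaperones or their partners and 26 antioxidant genes. RNA came from mycelia of 3 strains with 3 libraries each: a strain with the gene clrB deleted, a strain with the gene rcoA deleted, and the wild type strain 114-2. The transcription factor ClrB activates cellulase genes in fungi, and the Tup1 family to which RcoA belongs holds back transcription. Spores of each strain were grown for 22 h at 30 °C on 2% glucose; after washing, mycelia spent 24 h in Mandel's medium, where wheat bran and cellulose, each at 1%, were the carbon. Whether a strain's 3 libraries are separate cultures, and how many transformants stand for a deletion, is not in the labels. P-values therefore rest on library-to-library spread, part or all of which may be technical.

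Chaperones help proteins fold or keep them from clumping. Hsp70 binds exposed stretches of an unfolded protein, J-domain proteins (named after bacterial DnaJ) bring it its substrates and start its ATP cycle, exchange factors such as GrpE reset it, and Hsp90 takes over clients that are nearly folded. Chaperonins are barrels that enclose a protein: GroEL with its lid GroES in mitochondria, and the TCP-1 ring in the cytosol, which receives actin and tubulin from prefoldin. Antioxidant defence removes superoxide by superoxide dismutase and hydrogen peroxide by catalases and peroxiredoxins, while thioredoxins, glutaredoxins and glutathione keep protein thiols reduced with electrons from NADPH. In fungi many of these genes rise with heat, oxidants or unfolded protein.

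The gene described as ClrB, PDE_05999, stood at 0.11, 0.11 and 0.08 FPKM in clrB deletion libraries, 57.7, 62.3 and 69.8 in rcoA deletion libraries, and 191, 200.2 and 163 in wild type. No label names the rcoA locus. Of 4 genes described as TUP1, PDE_01024 stood at 2.08, 2.67 and 3.38 FPKM in libraries of the rcoA deletion, against 67.3, 65.5 and 70.7 in those of wild type. FPKM are fragments per transcript length and per mapped total, as the authors computed them, and their sum ranged from 776855 to 820648 per library. Replicate 2 of the clrB deletion stood apart, with correlations of log2 values of 0.946 and 0.957 to replicates 1 and 3, which correlated with each other at 0.991. Spore formation was followed by 5 genes described as BrlA, FlbD or scytalone dehydratase. They summed to 725, 325 and 636 FPKM in clrB deletion libraries. The sums were 335, 266 and 257 in rcoA deletion libraries, and 168, 299 and 298 in wild type. FlbD (PDE_03008) was the largest part of each sum, with 321, 252 and 243 FPKM in rcoA deletion libraries, against 109, 207 and 220 in wild type. The scytalone dehydratase PDE_09236 was listed at 0 in all rcoA deletion libraries. Mean FPKM in the rcoA deletion and wild type was 0.48 and 45.4 for the scytalone dehydratase PDE_04496, without overlap. For the BrlA gene PDE_00087 it was 13.1 and 24.9, also without overlap. The second BrlA gene, PDE_00079, had means of 0.52 and 0.99, with overlap. Fewer cells of a type and less RNA per cell cannot be told apart in such bulk samples.

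Chaperone and antioxidant genes were mostly higher in the rcoA deletion, and the largest folds were those of GrpE, an Hsp70 gene, Hsp90 and a J-domain gene. A gene was called when its adjusted p was under 0.05 in a limma fit of log2(FPKM + 1) over all 9 libraries. Of the 87 genes, 86 reached the mean of 1 FPKM needed for testing. In the rcoA deletion 55 of these were higher and 12 lower than in wild type. Of all 9097 tested genes 64.5% were called, 30.4% higher and 34.1% lower. All 3 rcoA deletion libraries lay above all 3 of wild type in 57 of the 86 genes and below them in 13, beside 34.8% and 39.1% of all tested genes. The median log2 change was 0.55 for the 86 genes and -0.04 for all tested genes. Chaperone genes gave 40 higher and 9 lower of 60, with a median of 0.59, and antioxidant genes 15 higher and 3 lower of 26, with a median of 0.41. At least 2-fold changes of the group means numbered 24 upward and 3 downward, whereas 12.4% and 13.9% of all tested genes met that mark. Of the 67 calls, 61 held under each of 19 alternative settings, which included other scalings and leaving out each library in turn.

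Changes in the clrB deletion were smaller, and most of the called ones were upward. There, 25 of the 86 genes were higher and 6 lower than in wild type, while 21.8% of all tested genes were called, 13.5% higher and 8.32% lower. The libraries did not overlap, with the clrB deletion higher in 33 genes and lower in 10, beside 24.3% and 14.6% of all tested genes. The median log2 change was 0.18, against 0.08 for all tested genes. Chaperone genes gave 20 higher and 3 lower of 60, with a median of 0.26, and antioxidant genes 5 higher and 3 lower of 26, with a median of 0.03 (-0.03 with equal medians or quantile normalization, -0.05 with trimmed mean factors), below that of all tested genes. The fold of means exceeded 2 in 2 called genes, the exchange factor GrpE and a catalase. Without clrB deletion replicate 2 the counts were 37 higher and 9 lower, and 37.5% of all genes were then called, 24.2% higher and 13.4% lower; 30 of the 31 calls were kept. Leaving out clrB deletion replicate 1 kept 17 of the 31, replicate 3 kept 11, rcoA deletion replicate 2 kept 20, and wild type replicates 1, 2 and 3 kept 13, 15 and 17. The 10 genes called under every alternative were PDE_00703, PDE_03760, PDE_05413, PDE_08711, PDE_02975, PDE_03163, PDE_06012, PDE_09312, PDE_05708 and PDE_07626. With the libraries scaled to equal medians, 19 of the 86 genes were called higher and 7 lower, while the share of higher calls among all genes was 49.9% in place of 61.9%.

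**Figure D1:**
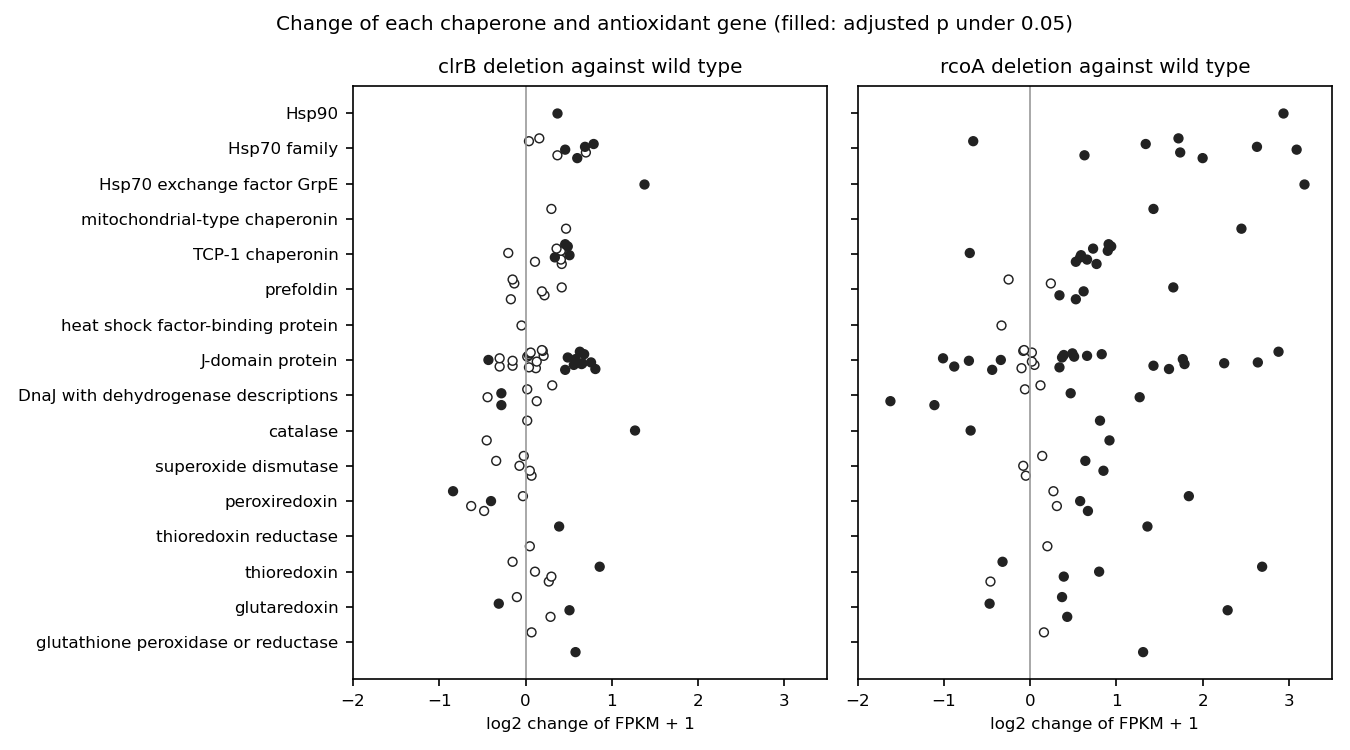
Log2 change of FPKM + 1 of each tested gene against wild type, in the clrB deletion (left) and the rcoA deletion (right), by class of protein on the vertical axis. Each point is 1 gene, filled where it was called; in the rcoA deletion 55 filled points lie right of 0 and 12 left, and in the clrB deletion 25 and 6.

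The summed FPKM of the 86 genes was 7222, 6718 and 6629 in clrB deletion libraries, 13121, 14232 and 13931 in rcoA deletion libraries, and 6308, 5802 and 6120 in wild type. Every rcoA deletion library lay above every other library, and the clrB deletion libraries lay above those of wild type by a narrower margin. Such sums weigh genes by FPKM, and the values rest on short tags, so levels of different genes are less certain than ratios for a gene. In clrB deletion replicate 2, 72 of the 86 genes (83.7%) lay outside the range of replicates 1 and 3; for all tested genes this share was also 83.7%. The median over the 86 genes of log2(FPKM + 1) minus the wild type mean was 0.27, 0.05 and 0.19 in clrB deletion replicates 1, 2 and 3, against 0.53, 0.54 and 0.55 in those of the rcoA deletion.

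**Figure D2:**
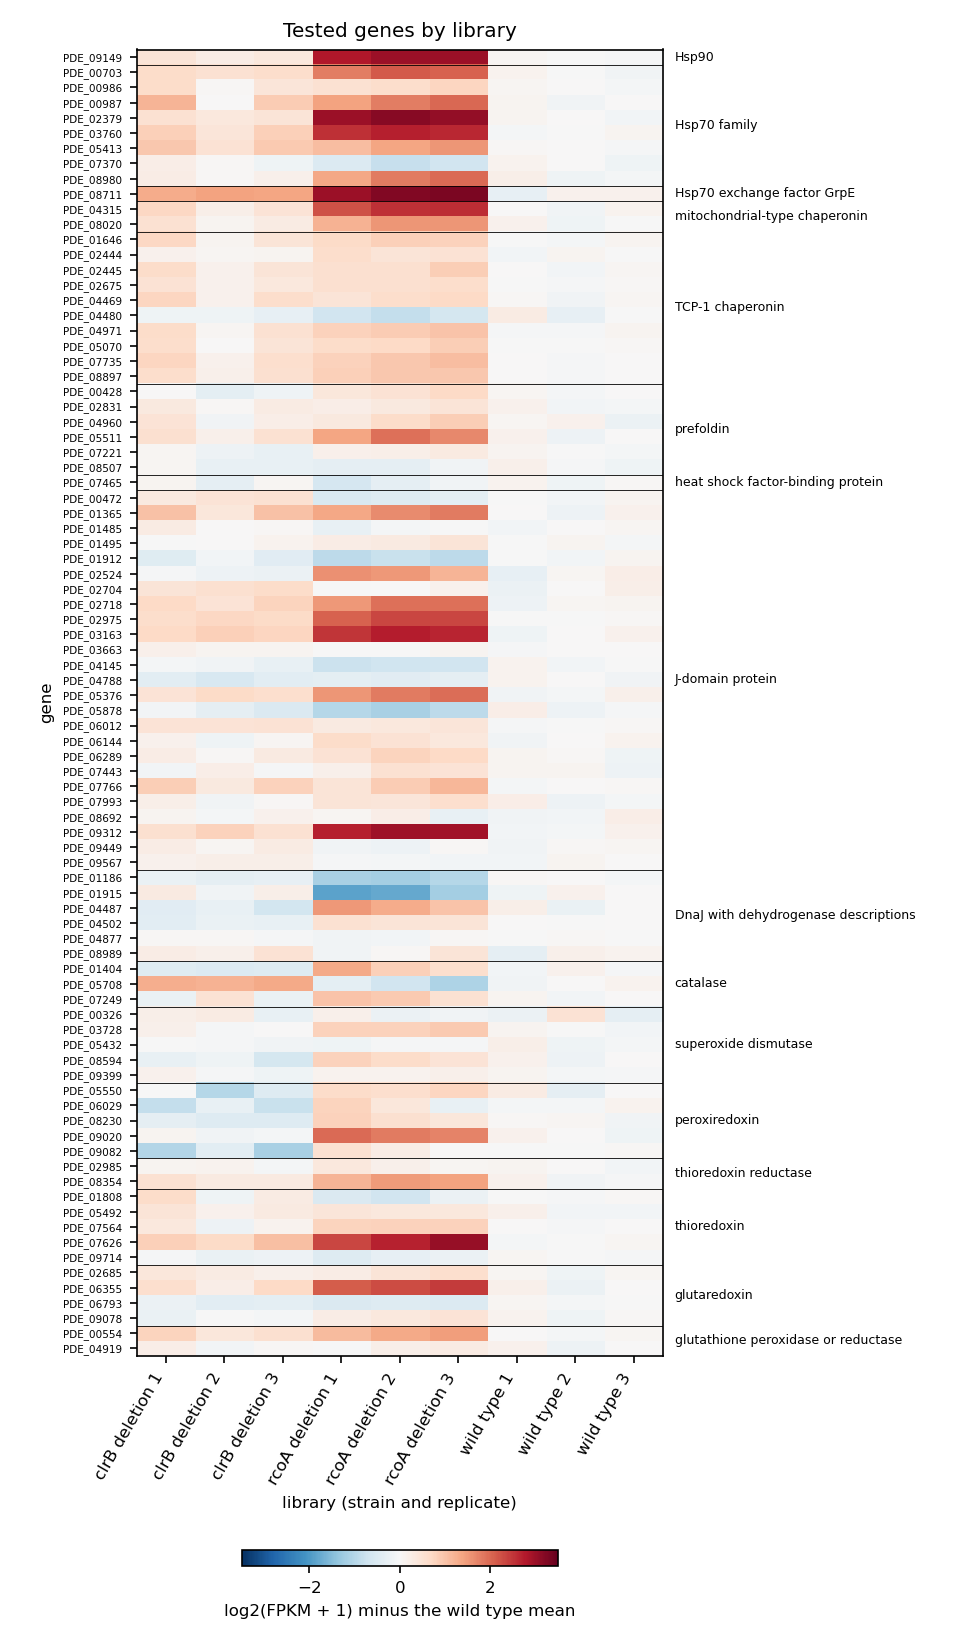
Each row is 1 of the 86 tested genes, grouped by class, and each column 1 library, with clrB deletion, rcoA deletion and wild type from left to right. The colour gives log2(FPKM + 1) minus the wild type mean; the 3 rcoA deletion columns look alike, while clrB deletion replicate 2 is paler than replicates 1 and 3 in the TCP-1 and chaperonin rows.

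Hsp90 and 6 of 8 Hsp70 family genes rose at least 2-fold in the rcoA deletion. Hsp90 and 4 of these Hsp70 genes were called higher in the clrB deletion, each by less than 2-fold, and the others were not called. The only Hsp90 gene found, described as HtpG (PDE_09149), had 263, 227 and 247 FPKM in the strain lacking clrB, 1331, 1536 and 1527 in the strain lacking rcoA, and 199, 187 and 186 in wild type. The rcoA deletion libraries lay far above the others, and those of the clrB deletion lay just above wild type without overlap. Hsp90 rose 7.68-fold (log2 change 2.93, SE 0.11, adjusted p = 7.94e-08) in the rcoA deletion. In the clrB deletion its fold was 1.29 with an adjusted p of 0.0403, and 10 of 19 alternatives, equal medians and trimmed mean factors among them, ended that call.

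Of 8 genes of the Hsp70 family, 7 rose and 1 fell in the rcoA deletion; 4 rose and 0 fell in the clrB deletion, with 6 rises and 0 falls there without clrB deletion replicate 2. The Hsp70 gene with the highest level, PDE_02379, of the family described as heat shock 70kDa protein 1/8 (cytosolic in animals), had 380.2, 341 and 362 FPKM in the clrB deletion libraries, 2113, 2408 and 2226 in those of the rcoA deletion, and 279.9, 263 and 245 in those of wild type. It rose 8.56-fold (log2 change 3.09, SE 0.11, adjusted p = 6.66e-08) in the rcoA deletion, with the smallest adjusted p among the 86 genes. In the clrB deletion it was 1.37-fold (adjusted p = 0.0196) higher, a call lost without clrB deletion replicate 1 or 3 and without wild type replicate 2 or 3. A second gene of that description, PDE_00987, had 194, 86.5 and 159.7 FPKM in clrB deletion libraries, 228, 297 and 346 in rcoA deletion libraries, and 91.1, 78.8 and 85.9 in wild type. Its rcoA deletion libraries were all above the other groups, at 3.4-fold (log2 change 1.74, SE 0.27, adjusted p = 0.000458), whereas clrB deletion replicate 2 lay among wild type values and replicates 1 and 3 did not. It was not called in the clrB deletion (adjusted p = 0.094), but was without replicate 2 (log2 change 1.04, adjusted p = 0.00191).

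PDE_03760, described by the bacterial name DnaK, had 97.5, 72.2 and 95.8 FPKM in the strain lacking clrB, 321, 359 and 339 in the strain lacking rcoA, and 51.5, 52.9 and 57.1 in wild type. The strains did not overlap; the rcoA deletion was highest, the clrB deletion intermediate and wild type lowest, with rises of 6.31-fold (log2 change 2.63, SE 0.12, adjusted p = 3.21e-07) in the rcoA deletion and 1.64-fold (log2 change 0.69, SE 0.12, adjusted p = 0.00701) in the clrB deletion. PDE_00703, described as heat shock 70kDa protein 4, a relative of Hsp70 that acts as its exchange factor in yeast and animals, had 60.01, 55.7 and 58.2 FPKM in the clrB deletion libraries, 135, 169.8 and 163 in those of the rcoA deletion, and 41.3, 37.8 and 34.9 in those of wild type. Its strains stood in that order too, without overlap, rising 4.1-fold (adjusted p = 7.14e-07) in the rcoA deletion and 1.53-fold (adjusted p = 0.00748) in the clrB deletion.

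Hsp70 5 is the name of the Hsp70 of the endoplasmic reticulum, BiP in animals, and PDE_08980 and PDE_05413 carried it. PDE_08980 had 91.6, 78.7 and 85.2 FPKM in clrB deletion libraries, 194, 271 and 304 in rcoA deletion libraries, and 87.4, 68.5 and 72.7 in wild type. Its clrB deletion and wild type libraries overlapped, and it rose 3.36-fold (adjusted p = 2.5e-05) in the rcoA deletion. PDE_05413 had 29.99, 22.1 and 29.3 FPKM in the strain lacking clrB, 33.1, 41.4 and 46.6 in the strain lacking rcoA, and 15.6, 15.2 and 14.8 in wild type. All its deletion libraries lay above wild type, with rises of 2.66-fold (adjusted p = 5.14e-05) in the rcoA deletion and 1.79-fold (adjusted p = 0.0085) in the clrB deletion. The remaining family members had the lowest levels of the 8. PDE_00986, whose description also names a ribosome recycling factor, rose 1.59-fold (adjusted p = 0.00477) in the rcoA deletion, and a second DnaK gene, PDE_07370, was 1.62-fold lower (log2 change -0.66, SE 0.13, adjusted p = 0.00208) there.

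The Hsp70 exchange factor described as GrpE (PDE_08711), which works in mitochondria in fungi, had 54.6, 58.6 and 57.6 FPKM in the clrB deletion libraries, 177, 212 and 219 in those of the rcoA deletion, and 17.3, 24.1 and 23.7 in those of wild type. No group overlapped another, and clrB deletion replicate 2 stood beside replicates 1 and 3. GrpE had the highest fold of means of the 86 genes in either deletion. It rose 9.34-fold (log2 change 3.17, SE 0.14, adjusted p = 2.07e-07) in the rcoA deletion and 2.62-fold (log2 change 1.37, SE 0.14, adjusted p = 0.000385) in the clrB deletion.

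**Figure D3:**
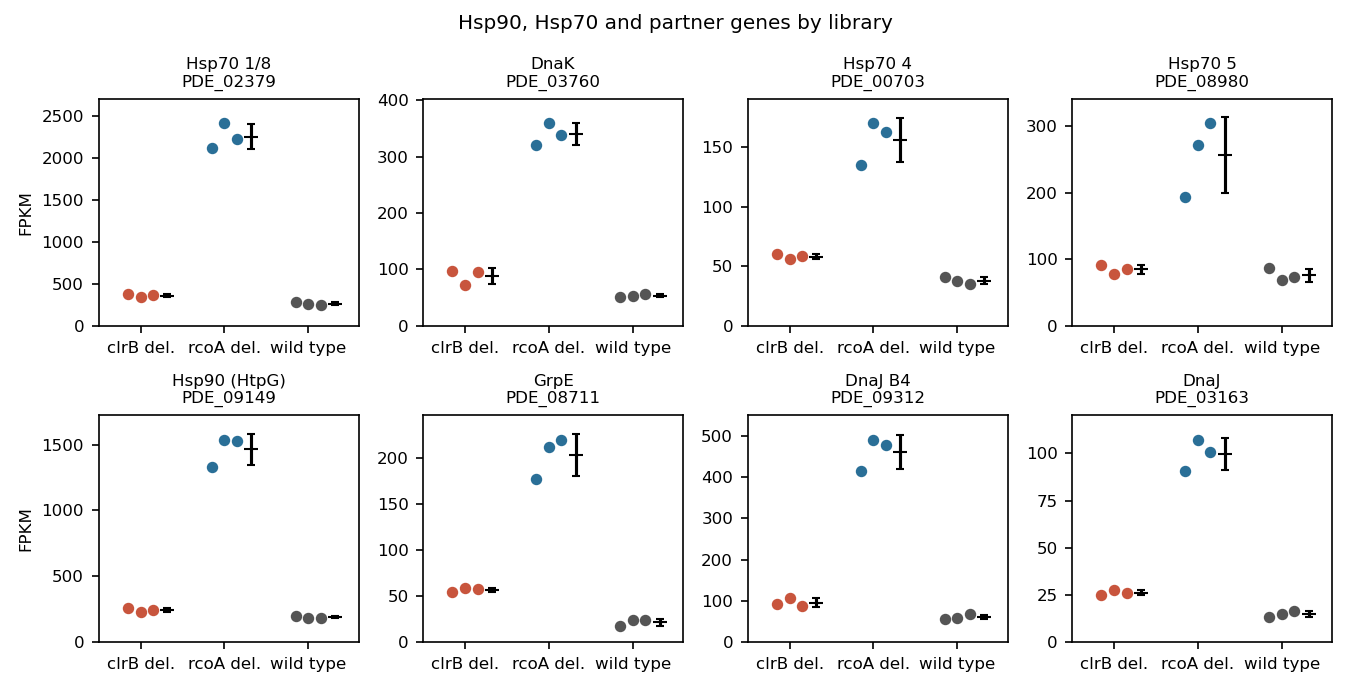
FPKM (vertical axes, from 0) of Hsp90, 4 Hsp70 family genes, GrpE and 2 J-domain genes in each library; points are libraries, and the bar beside them is the mean with the SD (n = 3). The 3 rcoA deletion libraries are the highest in every panel, and the clrB deletion libraries lie above those of wild type in every panel except PDE_08980.

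Genes of J-domain proteins, the partners that hand substrates to Hsp70, rose more often than they fell in the rcoA deletion. Of 25 such genes 14 (56%) rose and 5 (20%) fell there, beside 30.4% and 34.1% of all tested genes. In the clrB deletion 10 (40%) rose and 1 (4%) fell, beside 13.5% and 8.32%. The largest fold was that of PDE_09312, described as DnaJ B4, with 91.9, 108 and 89.1 FPKM in clrB deletion libraries, 414, 491 and 478 in rcoA deletion libraries, and 57.8, 59.2 and 68.2 in wild type. It rose 7.46-fold (log2 change 2.88, SE 0.12, adjusted p = 1.4e-07) in the rcoA deletion and 1.56-fold (adjusted p = 0.00785) in the clrB deletion. PDE_03163, described as DnaJ, had 24.96, 27.9 and 26.3 FPKM in the strain lacking clrB, 90.7, 107 and 101 in the strain lacking rcoA, and 13.5, 15.2 and 16.8 in wild type. It rose 6.57-fold (adjusted p = 1.3e-07) in the rcoA deletion and 1.74-fold (adjusted p = 0.00213) in the clrB deletion. In both genes the 3 strains did not overlap.

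PDE_02975, described as DnaJ A2, a cytosolic partner of Hsp70 in animals, had 119, 128 and 124 FPKM in the clrB deletion libraries, 330.2, 397 and 398 in those of the rcoA deletion, and 77.1, 76.6 and 79.4 in those of wild type. The rises were 4.83-fold (adjusted p = 1.99e-07) in the rcoA deletion and 1.59-fold (adjusted p = 0.00275) in the clrB deletion, again without overlap. Another DnaJ A2 gene, PDE_06012, rose 1.41-fold (adjusted p = 0.0037) in the clrB deletion and also rose in the rcoA deletion, 1.29-fold (adjusted p = 0.00229). The difference between the 2 deletions was not called (log2 change of the clrB deletion against the rcoA deletion 0.12, SE 0.08, adjusted p = 0.194). The third, PDE_07766, rose 1.88-fold (adjusted p = 0.00365) in the rcoA deletion and was 1.66-fold (adjusted p = 0.0338) higher in the clrB deletion, where 6 of 19 alternatives ended the call.

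Several J-domain genes with a more specific role also rose in the rcoA deletion. PDE_05376, described as DnaJ C19, part of the motor that draws proteins into mitochondria in yeast and animals, had 31.3, 35.9 and 33.6 FPKM in clrB deletion libraries, 66.02, 79.9 and 87.7 in rcoA deletion libraries, and 20.2, 21.1 and 25.01 in wild type. PDE_02718, described as DnaJ C7, which also binds Hsp90 in animals, had 43.2, 37.4 and 45.8 FPKM in the strain lacking clrB, 77.5, 103 and 104 in the strain lacking rcoA, and 23.4, 27.7 and 28.6 in wild type. PDE_01365, described as DnaJ C2, which sits on ribosomes in yeast, had 60.5, 39.2 and 60.7 FPKM in the clrB deletion libraries, 77.2, 94.2 and 107 in those of the rcoA deletion, and 29.8, 26.03 and 32.7 in those of wild type. Both deletions lay above wild type in all 3 genes. The rises in the rcoA deletion were 3.52-fold, 3.56-fold and 3.14-fold in that order (adjusted p = 3.66e-06, 6.49e-06 and 7.25e-05), and those in the clrB deletion 1.52-fold, 1.59-fold and 1.81-fold (adjusted p = 0.0139, 0.0142 and 0.0181). The 3 clrB deletion calls were each lost without clrB deletion replicate 3 and without wild type replicate 1, that of PDE_01365 also without clrB deletion replicate 1 or wild type replicate 2. A gene described as both a phosphomannomutase and DnaJ B6, PDE_02524, had 57.04, 52.5 and 50.7 FPKM in clrB deletion libraries, 182, 171 and 135 in rcoA deletion libraries, and 48.4, 61.5 and 69.4 in wild type. It rose 2.72-fold (adjusted p = 4.16e-05) in the rcoA deletion, while the clrB deletion libraries overlapped those of wild type. Smaller rises in the rcoA deletion, from 1.28-fold to 1.61-fold, were found for the DnaJ C3 gene PDE_01495, the DnaJ B4 gene PDE_06144, the iron-sulphur cluster partner HscB (PDE_06289), the DnaJ C17 gene PDE_07443 and the DnaJ C8 gene PDE_07993. Of these, the call of PDE_07443 was lost without rcoA deletion replicate 2 or 3 and without wild type replicate 3.

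The J-domain genes that fell in the rcoA deletion included both with SCJ1 in their description, which in yeast works in the endoplasmic reticulum. PDE_05878 had 19.5, 16.6 and 14.2 FPKM in the strain lacking clrB, 9.87, 9.0 and 10.6 in the strain lacking rcoA, and 24.4, 18.3 and 19.99 in wild type. It was 2.13-fold lower (log2 change -1.01, SE 0.14, adjusted p = 0.000232) in the rcoA deletion, with no overlap to wild type. The other SCJ1 gene, PDE_04145, was 1.7-fold lower (adjusted p = 0.000171). PDE_01912 and PDE_00472, whose descriptions include DnaJ A5, were 1.88-fold and 1.37-fold lower (adjusted p = 9.09e-05 and 0.00298), and the DnaJ gene PDE_04788 was 1.28-fold lower (adjusted p = 0.0108). PDE_00472 moved the opposite way in the clrB deletion, where it was 1.38-fold (adjusted p = 0.0122) higher; without clrB deletion replicate 3 that call was lost. PDE_04788 also fell in the clrB deletion, 1.35-fold (adjusted p = 0.0156), a call lost without wild type replicate 1. The DnaJ C9 gene PDE_02704, a histone partner in animals, had 132, 142 and 152 FPKM in the clrB deletion libraries, 95.5, 97.7 and 106 in those of the rcoA deletion, and 82.7, 97.2 and 110.04 in those of wild type. It was 1.47-fold (adjusted p = 0.0123) higher in the clrB deletion, a call lost without clrB deletion replicate 3, and not called in the rcoA deletion (adjusted p = 0.706).

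For 7 further genes the word DnaJ stood among descriptions of short-chain dehydrogenases, so they may not be chaperones. One of them, PDE_01242, was listed at 0 in 7 of 9 libraries and was not tested. Of the other 6, 2 rose and 2 fell in the rcoA deletion, and 0 rose and 2 fell in the clrB deletion. PDE_01915 had 35.1, 25.5 and 32.8 FPKM in clrB deletion libraries, 6.99, 7.34 and 11.8 in rcoA deletion libraries, and 24.97, 31.5 and 28.2 in wild type, and was 3.24-fold lower in the rcoA deletion (adjusted p = 9.1e-05). PDE_01186 had 22.0, 20.9 and 21.4 FPKM in the strain lacking clrB, 11.4, 10.99 and 12.6 in the strain lacking rcoA, and 26.9, 26.6 and 25.1 in wild type, and was 2.25-fold lower in the rcoA deletion (adjusted p = 5.6e-06). In the opposite direction, PDE_04487 had 6.98, 7.65 and 5.63 FPKM in the clrB deletion libraries, 28.7, 24.9 and 19.9 in those of the rcoA deletion, and 11.1, 7.94 and 9.54 in those of wild type, and rose 2.58-fold (adjusted p = 0.000152) in the rcoA deletion. PDE_04877, with the highest level of the 7, had 114, 114 and 107 FPKM in clrB deletion libraries, 100.3, 102 and 114 in rcoA deletion libraries, and 108, 113 and 109 in wild type; its 3 groups overlapped and it was called in neither deletion. PDE_04502 rose 1.41-fold (adjusted p = 0.000617) in the rcoA deletion and was 1.23-fold lower in the clrB deletion (adjusted p = 0.0327). In the clrB deletion PDE_01186 was 1.22-fold lower (adjusted p = 0.0453). Of 19 alternatives, 8 ended the clrB deletion call of PDE_04502 and 12 that of PDE_01186. Leaving these 7 genes out, 53 of 80 genes rose and 10 fell in the rcoA deletion, and 25 rose and 4 fell in the clrB deletion.

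Both parts of the mitochondrial-type chaperonin rose in the rcoA deletion. The ring gene GroEL (PDE_04315) had 121, 83.7 and 102 FPKM in the strain lacking clrB, 343, 428 and 442 in the strain lacking rcoA, and 72.8, 66.1 and 79.1 in wild type. The lid gene GroES (PDE_08020) had 125, 91.97 and 106 FPKM in the clrB deletion libraries, 203, 252 and 252 in those of the rcoA deletion, and 96.5, 77.3 and 86.3 in those of wild type. The rises in the rcoA deletion were 5.56-fold (log2 change 2.45, SE 0.15, adjusted p = 1.67e-06) for GroEL and 2.72-fold (log2 change 1.43, SE 0.14, adjusted p = 2.99e-05) for GroES, and no rcoA deletion library overlapped wild type. In the clrB deletion neither was called (adjusted p = 0.0551 and 0.158), though 1 of the 2 had an unadjusted p under 0.05; without clrB deletion replicate 2, which read lowest of the 3 for both genes, the log2 changes were 0.61 and 0.41 and both were called (adjusted p = 0.0089 and 0.0455).

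The cytosolic TCP-1 chaperonin is built from 8 different subunits, and 10 genes carried such a description, with beta and theta each on 2 genes. In the rcoA deletion 9 of the 10 rose, by 1.47-fold to 1.96-fold, and 1 fell. The gamma gene PDE_05070 had 63.96, 42.05 and 57.4 FPKM in clrB deletion libraries, 65.6, 67.5 and 75.5 in rcoA deletion libraries, and 40.9, 40.8 and 42.8 in wild type. It rose 1.68-fold (log2 change 0.73, SE 0.14, adjusted p = 0.00174) in the rcoA deletion without overlap to wild type. The alpha gene PDE_07735 had the highest fold, with 58.04, 37.8 and 52.2 FPKM in the strain lacking clrB, 60.9, 67.01 and 73.2 in the strain lacking rcoA, and 34.6, 33.5 and 34.6 in wild type, and rose 1.96-fold (adjusted p = 0.000459) in the rcoA deletion. Rises of the same order were found for the delta, epsilon, zeta and eta genes PDE_01646, PDE_08897, PDE_04971 and PDE_02675, at 1.72-fold, 1.91-fold, 1.89-fold and 1.51-fold. The theta genes PDE_02445 and PDE_02444, which have consecutive identifiers, rose 1.6-fold and 1.47-fold. None of the 10 reached a 2-fold change in either deletion.

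In the clrB deletion 4 of the 10 TCP-1 genes were called higher, namely alpha, epsilon, eta and the beta gene PDE_04469, at 1.28-fold to 1.45-fold. With equal medians, quantile normalization or trimmed mean factors 1 of the 10 was called higher there, and all 4 calls were lost without clrB deletion replicate 1 or 3 and without each wild type replicate in turn. Replicate 2 of that strain read lower than replicates 1 and 3 for these 4 genes: PDE_04469 had 68.8, 44.9 and 62.8 FPKM in the clrB deletion, against 41.8, 37.3 and 42.5 in wild type. Without replicate 2, 8 of the 10 were called higher and 0 lower, and the median log2 change of the 10 was 0.56 in place of 0.41. The clrB deletion and the rcoA deletion differed for 5 of the 10 TCP-1 genes, 4 being lower and 1 higher in the clrB deletion; with equal medians 8 were lower and 0 higher.

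Prefoldin, which passes new actin and tubulin to the TCP-1 ring, was called higher in part of its genes in the rcoA deletion. Of 6 genes described as prefoldin, 4 rose and 0 fell in the rcoA deletion, and in the clrB deletion limma called 0, while 1 had an unadjusted p under 0.05 and 2 were called higher without clrB deletion replicate 2. The largest rise was that of the unconventional prefoldin PDE_05511, which had 11.97, 8.81 and 11.6 FPKM in the clrB deletion libraries, 21.9, 32.2 and 26.99 in those of the rcoA deletion, and 8.65, 6.8 and 7.91 in those of wild type. It rose 3.47-fold (log2 change 1.66, SE 0.16, adjusted p = 2.62e-05) in the rcoA deletion. The prefoldin alpha gene PDE_07221, with the highest level of the 6, had 53.3, 44.7 and 42.7 FPKM in clrB deletion libraries, 58.2, 59.5 and 63.7 in rcoA deletion libraries, and 54.2, 50.3 and 48.9 in wild type. Its rcoA deletion libraries lay above wild type but the change was not called (log2 change 0.24, SE 0.10, adjusted p = 0.0659); it was with each of the 3 other scalings. Prefoldin 4 (PDE_00428), prefoldin 2 (PDE_02831) and prefoldin beta (PDE_04960) rose 1.46-fold, 1.27-fold and 1.57-fold in the rcoA deletion, and the calls of PDE_02831 and PDE_04960 were each lost without rcoA deletion replicate 3 and without wild type replicate 3, that of PDE_02831 also without rcoA deletion replicate 2 or wild type replicate 2. The heat shock factor-binding protein PDE_07465, a negative regulator of heat shock factor in animals, had 28.01, 20.6 and 27.2 FPKM in the strain lacking clrB, 16.9, 20.5 and 23.9 in the strain lacking rcoA, and 28.1, 23.4 and 26.6 in wild type. The 3 strains overlapped, and it was called in neither deletion (adjusted p = 0.079 in the rcoA deletion and 0.836 in the clrB deletion).

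Catalases split hydrogen peroxide. Of 3 such genes 2 rose and 1 fell in the rcoA deletion, and 1 rose and 0 fell in the clrB deletion. The catalase-peroxidase PDE_07249, the antioxidant gene with the highest level, had 695, 1143 and 696 FPKM in the clrB deletion libraries, 1619.8, 1536 and 1169 in those of the rcoA deletion, and 873, 754 and 812 in those of wild type. It rose 1.77-fold (log2 change 0.81, SE 0.22, adjusted p = 0.00861) in the rcoA deletion; in the clrB deletion replicate 2 lay above wild type and replicates 1 and 3 below it, and the change was not called (adjusted p = 0.964). The catalase PDE_05708 had 31.02, 30.1 and 32.3 FPKM in clrB deletion libraries, 9.56, 7.4 and 5.28 in rcoA deletion libraries, and 11.2, 12.3 and 13.5 in wild type. It was higher in every clrB deletion library and lower in every rcoA deletion library than in wild type. It rose 2.52-fold (log2 change 1.27, SE 0.17, adjusted p = 0.00193) in the clrB deletion and was 1.67-fold lower (log2 change -0.69, SE 0.17, adjusted p = 0.00589) in the rcoA deletion, so that the 2 deletions differed 4.2-fold (adjusted p = 1.35e-05). The catalase PDE_01404 had 23.7, 22.6 and 23.1 FPKM in the strain lacking clrB, 81.9, 58.3 and 48.1 in the strain lacking rcoA, and 29.8, 35.6 and 30.8 in wild type, the reverse order. It rose 1.96-fold (adjusted p = 0.00125) in the rcoA deletion and was not called in the clrB deletion (log2 change -0.45, SE 0.17, adjusted p = 0.0886).

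Beside the rise of PDE_05708 in the clrB deletion, 2 of the 4 tested spore formation genes were called higher there, FlbD (PDE_03008, adjusted p = 0.0485) and BrlA (PDE_00087, adjusted p = 0.0294), and 2 fell in the rcoA deletion. Of 19 alternatives, 14 ended the call of FlbD, all 3 other scalings among them, and 6 that of BrlA, among them leaving out any 1 wild type replicate. The summed FPKM of the 5 spore formation genes was 725, 325 and 636 in clrB deletion replicates 1, 2 and 3. Whether the rise of PDE_05708 had to do with spore formation was not tested.

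Superoxide dismutases turn superoxide into hydrogen peroxide, and the class of 5 genes followed here includes a copper chaperone. In the clrB deletion limma gave 0 calls among these 5. There 1 had an unadjusted p under 0.05, and 1 was called lower without clrB deletion replicate 2. The Cu-Zn enzyme PDE_09399, cytosolic in most eukaryotes and the highest of the 5, had 288, 249.6 and 233 FPKM in the clrB deletion libraries, 279.6, 282 and 292 in those of the rcoA deletion, and 276, 247 and 253 in those of wild type. The rcoA deletion libraries lay just above those of wild type and the clrB deletion overlapped both, and it was called in neither deletion (log2 change 0.14, SE 0.10 in the rcoA deletion and -0.02, SE 0.10 in the clrB deletion). Its copper chaperone PDE_03728, which loads copper into that enzyme, had 54.05, 46.7 and 47.8 FPKM in clrB deletion libraries, 84.03, 84.98 and 91.4 in rcoA deletion libraries, and 51.2, 47.5 and 44.9 in wild type. It rose 1.81-fold (log2 change 0.85, SE 0.09, adjusted p = 4.74e-05) in the rcoA deletion, without overlap, and was not called in the clrB deletion. Of 3 Fe-Mn genes, PDE_08594 had 159.6, 171 and 125 FPKM in the strain lacking clrB, 334, 295 and 267 in the strain lacking rcoA, and 212, 168 and 194 in wild type. It rose 1.56-fold (adjusted p = 0.00434) in the rcoA deletion, whereas PDE_05432 and PDE_00326 were not called there (adjusted p = 0.526 and 0.866).

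Peroxiredoxins, which reduce peroxides with a reactive cysteine, held 2 of the 6 called falls in the clrB deletion. Of 5 genes, 3 rose and 0 fell in the rcoA deletion, and 0 rose and 2 fell in the clrB deletion. PDE_09020, of the alkyl hydroperoxide reductase type, had 26.6, 22.6 and 23.7 FPKM in the clrB deletion libraries, 99.7, 89.4 and 85.3 in those of the rcoA deletion, and 27.3, 25.1 and 21.9 in those of wild type. It rose 3.69-fold (log2 change 1.84, SE 0.11, adjusted p = 1.2e-06) in the rcoA deletion, and its clrB deletion libraries overlapped wild type. PDE_09082, of the Q/BCP type, had 71.1, 113 and 65.6 FPKM in clrB deletion libraries, 210.2, 174 and 148 in rcoA deletion libraries, and 143, 143 and 151 in wild type. It was 1.75-fold lower (log2 change -0.84, SE 0.20, adjusted p = 0.02) in the clrB deletion, where no library reached the lowest of wild type, though replicate 2 stood closer to it; without that replicate the log2 change was -1.08. The call was lost without clrB deletion replicate 1 or 3 and without each of the wild type replicates in turn. The other Q/BCP gene, PDE_06029, had 70.8, 107 and 73.3 FPKM in the strain lacking clrB, 222, 169 and 106 in the strain lacking rcoA, and 122, 122 and 140.1 in wild type. It showed the same split of clrB deletion libraries and was not called (adjusted p = 0.105), but was without replicate 2 (log2 change -0.82, adjusted p = 0.0296).

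The atypical peroxiredoxin 5 (PDE_08230) fell 1.33-fold in the clrB deletion (adjusted p = 0.0376, with the call ended by 6 of 19 alternatives) and rose 1.51-fold (adjusted p = 0.00197) in the rcoA deletion. PDE_05550 had 90.3, 45.3 and 66.3 FPKM in the clrB deletion libraries, 144, 137 and 155 in those of the rcoA deletion, and 111, 73.1 and 92.6 in those of wild type, and rose 1.57-fold (adjusted p = 0.0313) in the rcoA deletion, a call lost without each rcoA deletion replicate in turn and without wild type replicate 2 or 3. All 5 peroxiredoxins were lower in the clrB deletion than in the rcoA deletion, by 1.98-fold to 3.77-fold (adjusted p = 0.0109 and 1.31e-06 for these), also under each of the 3 other scalings, whereas 24.9% of all tested genes were called lower in that comparison.

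Thioredoxins reduce disulfides in other proteins. Of 5 genes described as thioredoxin 1, 3 rose and 1 fell in the rcoA deletion. PDE_07626 had 37.9, 33.8 and 44.4 FPKM in clrB deletion libraries, 108, 140.1 and 178 in rcoA deletion libraries, and 19.8, 20.7 and 21.7 in wild type. The 3 strains did not overlap; it rose 6.85-fold (log2 change 2.69, SE 0.17, adjusted p = 1.86e-06) in the rcoA deletion and 1.87-fold (log2 change 0.86, SE 0.17, adjusted p = 0.0104) in the clrB deletion. The thioredoxin with the highest level, PDE_09714, had 333, 289 and 298 FPKM in the strain lacking clrB, 246, 276 and 297 in the strain lacking rcoA, and 355, 334 and 329.9 in wild type. It was 1.24-fold lower in the rcoA deletion (adjusted p = 0.0261), a call lost with equal medians and without rcoA deletion replicate 1 or 2 or wild type replicate 1 or 2. PDE_07564 and PDE_05492 rose 1.75-fold and 1.31-fold in the rcoA deletion (adjusted p = 0.000512 and 0.0125). PDE_01808 was not called in either deletion against wild type, and was 1.69-fold (adjusted p = 0.00983) higher in the clrB deletion than in the rcoA deletion.

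The thioredoxin reductase PDE_08354, which recharges thioredoxin from NADPH, had 38.3, 32.4 and 32.5 FPKM in the clrB deletion libraries, 60.5, 74.5 and 70.7 in those of the rcoA deletion, and 29.03, 23.9 and 25.1 in those of wild type. It rose 2.64-fold (log2 change 1.36, SE 0.12, adjusted p = 1.14e-05) in the rcoA deletion. Its rise in the clrB deletion was 1.32-fold (adjusted p = 0.0435), and 13 of 19 alternatives, including all 3 other scalings, ended the call. The second gene with this description, PDE_02985, which is also described as a quinone reductase, was called in neither deletion.

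Glutaredoxins use glutathione for the same kind of reaction, and monothiol glutaredoxins also carry iron-sulphur clusters. Of 4 genes, 3 rose and 1 fell in the rcoA deletion. The monothiol gene PDE_06355 had 20.5, 15.8 and 22.1 FPKM in clrB deletion libraries, 61.4, 68.5 and 77.3 in rcoA deletion libraries, and 15.2, 11.3 and 13.5 in wild type. It rose 5.18-fold (log2 change 2.29, SE 0.15, adjusted p = 2.45e-06) in the rcoA deletion and was 1.46-fold (adjusted p = 0.0436) higher in the clrB deletion, where 14 of 19 alternatives ended the call. The other monothiol gene, PDE_09078, rose 1.3-fold (adjusted p = 0.0126) in the rcoA deletion. Glutaredoxin 3 (PDE_02685), the highest of the class, had 519.95, 478 and 448 FPKM in the strain lacking clrB, 476, 539 and 589.8 in the strain lacking rcoA, and 417, 354 and 415 in wild type. Its rcoA deletion libraries lay above wild type, at 1.35-fold (adjusted p = 0.0126), a call lost with quantile normalization and without wild type replicate 2. PDE_06793, described as a ribosomal protein as well as glutaredoxin 3, was 1.4-fold lower in the rcoA deletion (adjusted p = 0.000864) and 1.24-fold lower in the clrB deletion (adjusted p = 0.0312, with the call ended by 7 of 19 alternatives).

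Glutathione reductase (PDE_00554), which restores glutathione with NADPH, had 179.6, 136 and 152 FPKM in the clrB deletion libraries, 225, 262 and 288 in those of the rcoA deletion, and 104, 97.97 and 109 in those of wild type. The 3 strains did not overlap. It rose 2.5-fold (log2 change 1.31, SE 0.13, adjusted p = 2.79e-05) in the rcoA deletion and 1.51-fold (adjusted p = 0.0166) in the clrB deletion, where the call was lost without clrB deletion replicate 3 and without wild type replicate 1 or 2. Glutathione peroxidase (PDE_04919), which uses glutathione to remove peroxides, had 212, 170.1 and 186 FPKM in clrB deletion libraries, 179.6, 206 and 222 in rcoA deletion libraries, and 200.2, 159.9 and 183 in wild type. All 3 strains overlapped, and it was called in neither deletion (adjusted p = 0.296 in the rcoA deletion and 0.744 in the clrB deletion).

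**Figure D4:**
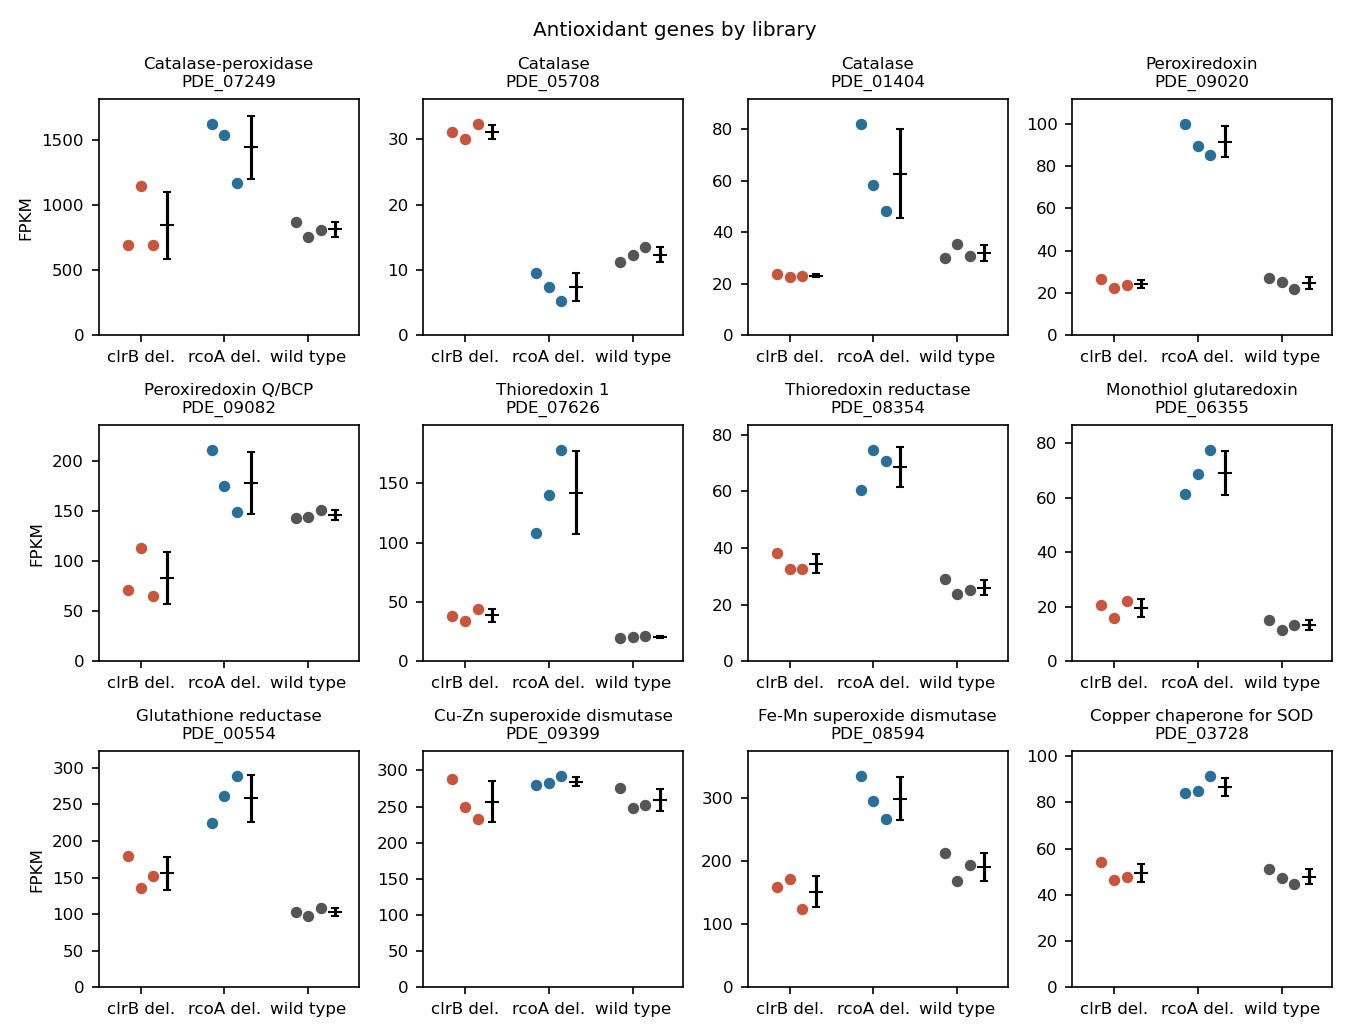
FPKM (vertical axes, from 0) of 12 antioxidant genes in each library; points are libraries, and the bar beside them is the mean with the SD (n = 3). Thioredoxin PDE_07626, peroxiredoxin PDE_09020 and glutaredoxin PDE_06355 are highest in the rcoA deletion, catalase PDE_05708 is highest in the clrB deletion, and Cu-Zn superoxide dismutase PDE_09399 differs little between strains.

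Some genes with the same description moved apart in the rcoA deletion. Of 16 descriptions held word for word by more than 1 tested gene, 6 had a called rise and a called fall. DnaK rose 6.31-fold in PDE_03760 and fell in PDE_07370, with 15.97, 12.4 and 13.8 FPKM in rcoA deletion libraries, against 24.99, 22.8 and 20.5 in wild type. DnaJ rose 6.57-fold in PDE_03163 and fell in PDE_04788, with 63.8, 62.01 and 65.7 FPKM in rcoA deletion libraries, against 88.3, 81.7 and 74.6 in wild type. In each of these pairs the gene that rose had 3 rcoA deletion libraries above all wild type libraries, and the gene that fell had them all below. TCP-1 beta rose 1.52-fold in PDE_04469 and fell in PDE_04480, with 6.43, 5.59 and 6.7 FPKM in rcoA deletion libraries, against 13.5, 8.66 and 10.7 in wild type. Catalase, thioredoxin 1 and the DnaJ entry shared by PDE_01186 and PDE_04502 were the other 3 descriptions. Genes that share only 1 of several descriptions, such as those named DnaJ A5 or SCJ1, are outside this count. The same count over all genes was not made, and of all tested genes 30.4% were called higher and 34.1% lower in the rcoA deletion. How alike these sequences are was not analysed here, and near-identical copies may have shared reads.

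**Figure D5:**
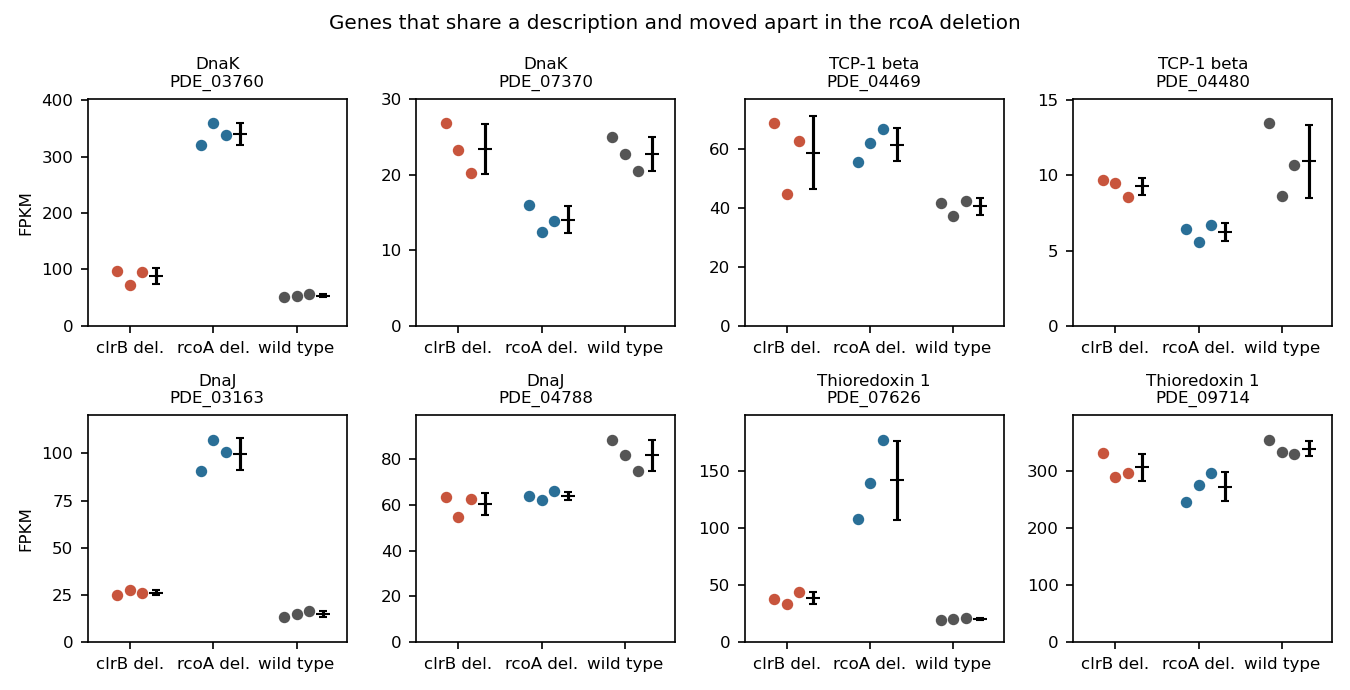
FPKM (vertical axes, from 0) of 4 pairs of genes with a shared description, the one that rose in the rcoA deletion before the one that fell; points are libraries and bars the mean with the SD (n = 3). The rcoA deletion libraries lie above wild type in the first gene of each pair and below it in the other; the fall of the thioredoxin PDE_09714 was lost in some alternatives.

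Set against each other, the deletions differed for 59 of the 86 genes, with 13 higher and 46 lower in the clrB deletion than in the rcoA deletion; of all tested genes 60.1% were called, 35.2% higher and 24.9% lower. Without clrB deletion replicate 2, 14 were higher and 46 lower, and 62.4% of all tested genes were called, 37.2% higher and 25.1% lower. The libraries of the 2 deletions did not overlap in 17 genes where the clrB deletion was higher and 46 where it was lower, beside 38.5% and 27.0% of all tested genes. Called differences of at least 2-fold numbered 2 upward and 23 downward, beside 13.1% and 9.93% of all tested genes. The median log2 difference was -0.42 for the 86 genes and 0.11 for all tested genes. Each deletion's change against wild type uses the same wild type libraries, and this direct comparison tests how far the 2 changes differ. The scaling shifted the median of all genes here by -0.14 with equal medians and -0.16 with quantile normalization, and the 86 genes then gave 10 higher and 54 lower, or 11 higher and 51 lower. The share of higher calls among all genes was 58.6% as deposited and 46.2% and 45.3% under these. The lowest ratios were those of the Hsp70 gene PDE_02379, 6.23-fold lower in the clrB deletion, and Hsp90 (PDE_09149), 5.96-fold lower. Those higher in the clrB deletion included the catalase PDE_05708 (4.2-fold), the dehydrogenase-described PDE_01915 (3.57-fold), the DnaJ A5 gene PDE_00472 (1.89-fold) and the SCJ1 gene PDE_05878 (1.71-fold), with adjusted p of 0.00221 or less.

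Genes that act beside these proteins were followed with 7 lists of words. For each list the counts can be read beside the 30.4% of all tested genes called higher and 34.1% called lower in the rcoA deletion, and the 13.5% and 8.32% in the clrB deletion. Regulators named for heat or oxidative stress numbered 10, of which 2 rose and 4 fell in the rcoA deletion and 1 rose and 0 fell in the clrB deletion. Among the 10 was the heat shock factor-binding protein PDE_07465, which was also counted above among the chaperone genes. The heat shock transcription factor PDE_05764, which switches on chaperone genes in yeast and animals, had 42.9, 42.4 and 45.6 FPKM in the strain lacking clrB, 24.7, 26.2 and 26.5 in the strain lacking rcoA, and 29.1, 33.4 and 30.1 in wild type. It was 1.2-fold lower in the rcoA deletion (adjusted p = 0.0277), a call ended by 6 of 19 alternatives, equal medians and quantile normalization among them. It was 1.41-fold (adjusted p = 0.00614) higher in the clrB deletion, a call that held in all 19. The second such gene, PDE_09961, was called in neither deletion. The AP-1-like factor PDE_03264, of a family that drives oxidant defence in yeast, had 96.5, 108 and 98.9 FPKM in the clrB deletion libraries, 167, 164 and 156 in those of the rcoA deletion, and 78.7, 93.4 and 81.99 in those of wild type, and rose 1.91-fold (adjusted p = 2.97e-05) in the rcoA deletion. The other AP-1-like genes did not move together there. PDE_00167 rose 3.19-fold (adjusted p = 2.11e-06), PDE_00538 was 2.21-fold lower (adjusted p = 4.58e-05) and PDE_05394 was not called. The descriptions of PDE_00167 and PDE_00538 also name a nuclear pore protein. Lower as well were the SKN7 gene PDE_08232, 1.35-fold (adjusted p = 0.00125), and PDE_07489, described as MSN2/4 and STE12, 1.42-fold (adjusted p = 0.00257). PDE_05486, with the same description and a higher mean over the libraries (216 against 25.6 FPKM), was not called there (adjusted p = 0.335).

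Of 8 trehalose genes, whose sugar protects proteins in heated fungi, 7 were tested; 4 rose and 0 fell in each deletion. The trehalose 6-phosphate synthase PDE_08181 had 45.7, 44.9 and 46.5 FPKM in clrB deletion libraries, 73.03, 78.6 and 86.6 in rcoA deletion libraries, and 32.6, 38.7 and 35.6 in wild type. It rose 2.23-fold (adjusted p = 1.04e-05) in the rcoA deletion and 1.28-fold (adjusted p = 0.0312) in the clrB deletion. Of the 4 calls in the clrB deletion, that of PDE_08181 was ended by 8 of 19 alternatives and that of PDE_01521 by 9, while those of PDE_00891 and PDE_05219 held in all 19. Words for the pentose phosphate pathway, a source of NADPH, found 9 genes. Of these, 5 rose and 2 fell in the rcoA deletion, and 3 rose and 0 fell in the clrB deletion. PDE_07269, described as 3-hydroxyisobutyrate dehydrogenase, was among those 2 falls and those 3 rises. In the rcoA deletion glucose-6-phosphate dehydrogenase (PDE_01924) rose 1.34-fold (adjusted p = 0.00408). The 6-phosphogluconate dehydrogenase PDE_08859 rose 1.35-fold there (adjusted p = 0.0192), a call ended by 5 of 19 alternatives. Neither was called in the clrB deletion, and PDE_08816, also described as 6-phosphogluconate dehydrogenase, was called in neither deletion. The transaldolase PDE_09398 rose 1.75-fold (adjusted p = 0.000252) in the rcoA deletion and 1.33-fold (adjusted p = 0.0348) in the clrB deletion, where 8 of 19 alternatives ended the call. The 6-phosphogluconolactonase PDE_09986 was 42.6-fold lower in the rcoA deletion (adjusted p = 3.9e-08). It had 1.33, 2.31 and 2.05 FPKM in rcoA deletion libraries, against 87.8, 78.1 and 76.6 in wild type. A second gene of that description, PDE_03036, rose 2.94-fold (adjusted p = 2.69e-06) in the rcoA deletion. Of 20 genes for glutathione synthesis and transfer, 6 rose and 4 fell in the rcoA deletion, and 2 rose and 2 fell in the clrB deletion. The glutathione synthase PDE_07454, the called gene of this list with the highest mean, had 1331, 1361 and 1480.0 FPKM in the strain lacking clrB, 1413, 1260.0 and 871 in the strain lacking rcoA, and 2688, 2486 and 2791 in wild type. It was 2.25-fold lower in the rcoA deletion (adjusted p = 0.000427) and 1.91-fold lower in the clrB deletion (adjusted p = 0.0105), without overlap to wild type. Another glutathione synthase gene, PDE_09331, rose 1.52-fold (adjusted p = 0.00208) in the rcoA deletion and was not called in the clrB deletion.

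Of 2 cytochrome c peroxidase genes, PDE_05494 rose 2.01-fold (adjusted p = 1.11e-05) in the rcoA deletion and 1.6-fold (adjusted p = 0.00156) in the clrB deletion, and PDE_08098 was 1.54-fold lower in the rcoA deletion (adjusted p = 0.00158). The folding helpers of the endoplasmic reticulum and the prolyl isomerases, 21 genes, gave 4 rises and 6 falls in the rcoA deletion and 1 rise and 2 falls in the clrB deletion. Among them the protein disulfide isomerase PDE_06215 was 1.67-fold lower in the rcoA deletion, with 183, 214 and 231 FPKM in rcoA deletion libraries, against 399, 321 and 331 in wild type, and the prolyl isomerase PDE_01711 was 1.49-fold lower in the clrB deletion (adjusted p = 0.0242) and 1.35-fold higher in the rcoA deletion (adjusted p = 0.0192). Of 19 alternatives, 5 ended its clrB deletion call and 3 its rcoA deletion call. Among the 4 rises of this list in the rcoA deletion, PDE_08820 (6.35-fold) and PDE_02079 are described first as NADPH2 dehydrogenase and last as protein disulfide isomerase. The other rises there were of the prolyl isomerases PDE_01711 and PDE_05868. PDE_08820 was also the rise in the clrB deletion. Of the 4 tested spore formation genes, 2 rose in the clrB deletion and 2 fell in the rcoA deletion. The clrB deletion calls of FlbD and BrlA ended under 14 and 6 of the 19 alternatives. FlbD (PDE_03008), with the higher mean of the pair there, stood at 370.1, 242 and 356 FPKM there, against 109, 207 and 220.1 in wild type. BrlA (PDE_00087) stood at 149, 33.4 and 121 FPKM in clrB deletion libraries, against 18.2, 27.9 and 28.5 in wild type, a 4.07-fold rise. Its rcoA deletion libraries lay below those of wild type, but the change was not called (adjusted p = 0.136). The scytalone dehydratase PDE_04496, an enzyme of spore pigment, stood at 0.54, 0.45 and 0.45 FPKM in libraries of the rcoA deletion, against 36.5, 56.1 and 43.4 in those of wild type. The part that sporulation or its loss had in the chaperone and antioxidant values was not tested.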

How the data were processed

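The deposited table gave FPKM for 9907 genes, computed by the authors. Per the labels' protocols, oligo(dT)-selected RNA was made into cDNA, cut with NlaIII and MmeI into short tags and sequenced. How tags were aligned, counted and divided by length, and on which build, is not given in the sources used here. No read counts were used, so the depth of each library is unknown and no counting interval is given. A further 3 columns of library values were not used here. The reference gene list, of another strain, has 9964 genes, and 0 of the identifiers were found in it, so no coordinates are given.

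Members were found in the deposited KEGG orthology and nr descriptions, which are automated: 15 of the 87 carry more than 1, and 85 are hypothetical proteins in nr. Genes with a mean of at least 1 FPKM over the 9 libraries were tested as log2(FPKM + 1) with limma 3.58.1 (R 4.3.3), fitting 1 mean to each strain, with an intensity trend, two-sided tests and Benjamini-Hochberg adjustment over all 9097 genes; the fit was tested on simulated data. Fold changes on this scale understate those of low genes; folds in the text are of group means. Alternative scalings of FPKM were equal medians, quantile normalization and trimmed mean factors. Members, lists and tests were chosen with earlier results of these data known. Library values are given for the highest member of each class and for called members with a fold of at least 2 in a deletion whose mean reached 10 FPKM in either strain compared, 38 genes in all, and for other members chosen after their values were seen.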

Additional observations from a re-analysis of the deposited data

How the results depend on the processing

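Across 19 alternatives the number of called genes among the 86 ranged, with 1 library left out, from 11 to 46 in the clrB deletion (31 as reported), from 63 to 69 in the rcoA deletion (67) and from 54 to 63 between the deletions (59). Leaving out a library left 1 strain with 2, assumed to vary like the others. Other pseudocounts, filters, scalings, no intensity trend and fits of the compared strains alone gave 22 to 31, 67 to 69 and 56 to 64 calls. Among all tested genes, calls in the clrB deletion numbered 1987 as reported and 1265 in a fit of the 6 libraries compared, 1326, 3412 and 722 without clrB deletion replicates 1, 2 and 3, and 874, 1077 and 1288 without wild type replicates 1, 2 and 3. Of the genes given with library values by rule, 9 of 19 calls in the clrB deletion held under every alternative, 30 of 32 in the rcoA deletion and 29 of 31 between the deletions, and 0 reversed.

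Libraries share replicate numbers across strains, but deviations of same-numbered libraries correlated between -0.16 and 0.34, and not every library correlated best with its own number, so the numbers were not taken as pairs. With a replicate block, 24, 68 and 60 genes were called in the 3 comparisons. The precision is limited by 3 libraries a strain and by the unknown depth.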
